A study of Mus musculus with 15 samples.

Results

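The 10 class I antigen presentation genes described here were followed across 5 lines of Lewis lung carcinoma (LL2) cells, a mouse lung tumor line. The members were taken by symbol from the expression table: the heavy chains H2-K1 and H2-D1, B2m, Tap1, Tap2, Tapbp, Psmb8, Psmb9, Psmb10 and Nlrc5. All 10 were found among the 35880 gene symbols, and all 10 were among the 14652 genes tested. RNA had been sequenced from the parental line (LL2 WT), from 3 KEAP1 knockout clones (KEAP1 KO #1, #2 and #3) and from 1 NRF2 knockout clone (NRF2 KO), in 3 biologic replicates each. Every line carried luciferase and was grown in the same complete medium without treatment. The knockouts were made with a plasmid coding for Cas9, GFP and a guide to mKeap1 or mNfe2l2, and each grew from a single GFP+ cell. LL2 WT was the uncloned parent, so that each knockout line is 1 clone and clonal origin cannot be told apart from the edit within a line. The labels number the replicates 1 to 3 in every line without saying what a number marks. Where cultures of a line were not independent, the p-values would measure technical spread.

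Class I molecules show fragments of the cell's own proteins to CD8+ T cells. The proteasome cuts the proteins, and its immunoproteasome form carries the catalytic subunits encoded by Psmb8, Psmb9 and Psmb10 in place of the standard ones. TAP1 and TAP2 form the pump that carries peptides into the endoplasmic reticulum, where tapasin (Tapbp) holds the empty heavy chain and beta-2 microglobulin (B2m) for loading. NLRC5 is the transactivator of class I genes, and interferon gamma raises most genes of the pathway. NRF2 is a transcription factor that KEAP1 targets for degradation. LL2 cells are known for low surface class I.

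Values were CPM, read counts scaled to a common library total. One limma model of all 15 samples on log2(CPM + 0.1) gave every difference. Calls needed an absolute log2 fold change over 1 and an adjusted p (Benjamini-Hochberg over all genes tested) under 0.05. Values of the 3 samples of a line are given in the order of replicates 1, 2 and 3. All adjusted p-values below come from this fit unless another is named. Depth per sample could not be read from the table. With the 30 M reads that the methods give as an average, 3 reads equal 0.1 CPM, which served as the floor. Keap1 averaged 22.97 CPM in the parent, 11.8 CPM in KEAP1 KO #1 (log2 fold change −0.95, not called), 5.53 CPM in #2 and 5.58 CPM in #3. Nfe2l2, which encodes NRF2, was at −0.66 in NRF2 KO, so that its transcript was still measured there. It was lower to a like degree in KEAP1 KO #1 (−0.945, adjusted p = 0.000196), #2 (−0.587, 0.0033) and #3 (−0.67, 0.00132), with no call. The mean of the 3 KEAP1 KO clones differed from NRF2 KO by −0.076 (adjusted p = 0.64). Nqo1, a target of NRF2, had log2 fold changes of 3.97, 3.19 and 4.02 in these clones and −1.61 in NRF2 KO. The keratins Krt8 and Krt18 and the mesenchymal marker Vim were at 65.1 CPM or more in every sample, while the epithelial markers Epcam, Cdh1, Cldn4 and Nkx2-1 stayed below the floor and Sftpc reached 0.422 CPM. The mesenchymal list (5 genes, 4 above 1 CPM) summed to 3591 to 5834 CPM in the parent and 1564 to 2179 CPM in the KEAP1 KO clones, with Vim, which makes up most of the sum, called lower, against 3261 to 4596 CPM in NRF2 KO. Cdh2 of that list went the other way in #1 (0.68, adjusted p = 0.0142) and #3 (0.795, 0.00415) and was called lower in #2 (−3.95). Of 9 leukocyte markers, Adgre1 was at 0 in all samples and Ptprc, Cd3e, Itgam, Fcgr1 and Nkg7 reached at most 0.214 CPM. The summed level of the list was 2.98 to 6.03 CPM in LL2 WT and 2.70 to 5.24 CPM in NRF2 KO. In KEAP1 KO #1, #2 and #3 it was 5.87 to 11.8, 9.70 to 23.4 and 14.6 to 38.3 CPM. Cd68, which makes up most of the sum in these clones, was called higher in #2 and #3. Itgax, the only other marker of the list tested, had log2 fold changes of 0.208, −0.739 and −0.473 in #1, #2 and #3, with no call. Endothelial markers (3 genes) summed to 2.47 to 7.48 CPM, with Cdh5 called higher in #2 and #3 at up to 1.54 CPM. The part of these markers in the members' results was not tested. The samples numbered 3 stood apart from those numbered 1 and 2 in every line, and this touches most members, so results are also given without them.

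7 members lie in the MHC region of mouse chromosome 17 (GRCm38.p6). These are Tapbp (chr17:33915899-33929292), H2-K1 (chr17:33996017-34000347), Psmb9 (chr17:34181987-34187764), Tap1 (chr17:34187553-34197225), Psmb8 (chr17:34197721-34201454), Tap2 (chr17:34203527-34216321) and H2-D1 (chr17:35262730-35267499). B2m lies on chromosome 2 (chr2:122147686-122153083). Nlrc5 (chr8:94434356-94527272) and Psmb10 (chr8:105935735-105938444) lie on chromosome 8. All 10 are protein coding. Psmb9 and Tap1 point away from each other and overlap at their starts. Of the 31-base words in its annotated transcripts, H2-K1 shared 22.8% with other genes and H2-D1 26.9%, mostly with each other and with H2-Q genes. Reads of these 2 heavy chains can therefore be split between them by the counting. The share was 26.9% for Tapbp and from 0.0% to 14.3% for the other members.

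Promoter windows of the 2 heavy chains, of the shared Tap1 and Psmb9 start, of Psmb8 and of B2m are shown because these genes differ most in level or in how they varied between lines. They are RefSeq windows of GRCm38.p6, 250 bases before and 50 after the annotated start, written 5′ to 3′ on the gene's own strand. Windows were given for 8 members, with a second window for H2-K1 that starts 14 bases downstream. The windows of Psmb8, H2-D1 and Tapbp lie wholly inside the gene positions given above, so they begin downstream of the gene's first base. Capitals mark GGGATTCCC (an NF-kB site), GAAANNGAA (the core of the interferon-stimulated response element) or TGACNNNGC (the antioxidant response element that NRF2 binds), on either strand. Only these spellings were searched, so a window without a match can still hold the element in another spelling.
H2-K1, chr17:34000298-34000597, minus strand: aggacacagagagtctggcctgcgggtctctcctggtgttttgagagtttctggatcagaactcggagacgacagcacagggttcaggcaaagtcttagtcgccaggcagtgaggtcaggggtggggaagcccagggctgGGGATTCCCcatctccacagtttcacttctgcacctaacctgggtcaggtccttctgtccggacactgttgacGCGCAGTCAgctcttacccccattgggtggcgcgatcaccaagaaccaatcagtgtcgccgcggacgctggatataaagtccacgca
H2-D1, chr17:35262844-35263143, plus strand: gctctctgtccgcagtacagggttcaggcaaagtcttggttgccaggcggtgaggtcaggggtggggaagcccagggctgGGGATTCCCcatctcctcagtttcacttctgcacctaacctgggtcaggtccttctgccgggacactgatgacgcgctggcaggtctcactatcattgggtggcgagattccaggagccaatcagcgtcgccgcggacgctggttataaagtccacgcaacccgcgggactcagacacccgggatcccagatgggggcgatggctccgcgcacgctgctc
B2m, chr2:122147437-122147736, plus strand: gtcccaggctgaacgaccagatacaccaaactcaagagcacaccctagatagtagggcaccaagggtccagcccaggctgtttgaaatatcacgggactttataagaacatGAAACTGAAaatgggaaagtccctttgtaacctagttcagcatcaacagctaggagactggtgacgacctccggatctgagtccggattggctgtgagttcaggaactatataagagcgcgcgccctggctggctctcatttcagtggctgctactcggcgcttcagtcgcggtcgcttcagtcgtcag
Tap1, chr17:34187306-34187605, plus strand: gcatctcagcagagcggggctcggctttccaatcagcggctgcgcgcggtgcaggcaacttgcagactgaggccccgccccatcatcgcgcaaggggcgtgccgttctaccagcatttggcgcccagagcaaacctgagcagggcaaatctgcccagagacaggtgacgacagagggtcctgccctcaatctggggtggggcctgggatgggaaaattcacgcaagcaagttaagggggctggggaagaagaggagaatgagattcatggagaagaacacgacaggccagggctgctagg
Psmb8, chr17:34197945-34198244, plus strand: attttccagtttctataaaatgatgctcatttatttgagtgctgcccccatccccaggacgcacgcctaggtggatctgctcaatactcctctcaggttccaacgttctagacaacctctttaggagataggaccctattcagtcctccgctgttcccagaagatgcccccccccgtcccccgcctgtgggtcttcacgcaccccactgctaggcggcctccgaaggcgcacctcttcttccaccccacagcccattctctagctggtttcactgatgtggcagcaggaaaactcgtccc

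Laid side by side at the NF-kB site, the H2-K1 and H2-D1 windows held the same base at 176 of 240 positions (73.3%). GGGATTCCC was found in these windows alone among the members, at position −110 in H2-K1 and −170 in H2-D1, and in 0.4% of all 32851 RefSeq windows. The antioxidant response element letters were found in H2-K1 alone (position −37, minus strand) and in 12.4% of all windows, and the match overlaps TGACG by 1 base. GAAANNGAA was found in B2m alone (position −139) and in 8.6% of all windows. CCAAT, the Y box of class I promoters, was found in 6 members and in 37.4% of all windows. TGACG, the core of the X2 box, was found in H2-K1, H2-D1, B2m, Tap1 and Psmb9 and in 20.8% of all windows. The Psmb8 and Psmb10 windows held none of these letters. As the Psmb8 window lies inside the gene, the bases before the gene's first base were not searched. The Psmb9 window reads the opposite strand of the Tap1 window over 275 of its 300 bases.

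Per length, the members spanned more than 3 orders of magnitude. B2m led in every sample, at a median of 513 CPM per kilobase of its longest transcript, and made up 77.6% to 84.6% of the summed per-kilobase level of the 10 genes. H2-D1 followed at a median of 72.4 CPM per kilobase and lay above the next gene in all 15 samples. Psmb10 (24.1), Tapbp (14.1) and Tap2 (4.39) came next. H2-K1 stood at 1.67 CPM per kilobase and Tap1 at 0.912. Psmb8 (0.337), Psmb9 (0.138) and Nlrc5 (0.123) were the lowest. Neighbours in this order from Tap2 down exchanged places in 2 to 5 of the 15 samples, and Psmb10 and Tapbp did so in 3. H2-D1 exceeded H2-K1 in every sample, by 4.57-fold to 32.1-fold per kilobase in LL2 WT and 5.85-fold to 32.4-fold in NRF2 KO. In the KEAP1 KO clones the ratio was 26.6 to 86.2 in #1, 62.3 to 95.4 in #2 and 35.4 to 100.1 in #3.

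**Figure D1:**
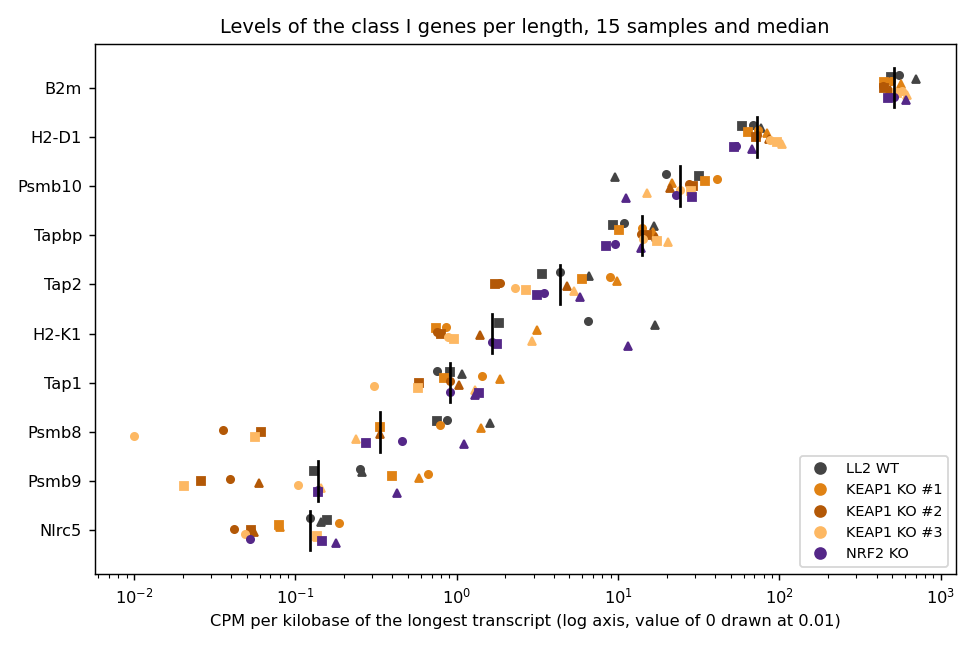
CPM per kilobase of the longest annotated transcript (log axis) for each member, one point per sample, colored by line and shaped by replicate number (circle 1, square 2, triangle 3), with a bar at the median of the 15 samples. B2m and H2-D1 lie apart from the rest at medians of 513 and 72.4 CPM per kilobase, and H2-K1 spreads the most among the members above 1 CPM per kilobase.

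Among the 5 lines, 4 members differed by limma's F test: Psmb9 (adjusted p = 0.00318), H2-D1 (0.00944), Psmb8 (0.0104) and Tap2 (0.0466). Of all genes tested, 37.6% did so. Against LL2 WT, 0 members were called by limma in KEAP1 KO #1 (2 at an unadjusted p under 0.05), where 8.54% of all genes were called. In KEAP1 KO #2, 4 members were called and all were lower (H2-K1, Psmb8, Psmb9 and Nlrc5), where 13.7% of all genes were called and 7.75% were called lower. In KEAP1 KO #3 only Psmb8 was called, lower, where 13.4% of all genes were called and 7.34% were called lower. In NRF2 KO 0 members were called by limma (0 at an unadjusted p under 0.05), where 0.464% of all genes were. The median log2 fold change of the members was 0.13, −0.61, −0.49 and −0.20 in KEAP1 KO #1, #2, #3 and NRF2 KO, beside 0.11, 0.03, 0.02 and 0.04 over all genes tested. These comparisons share the LL2 WT samples.

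**Figure D2:**
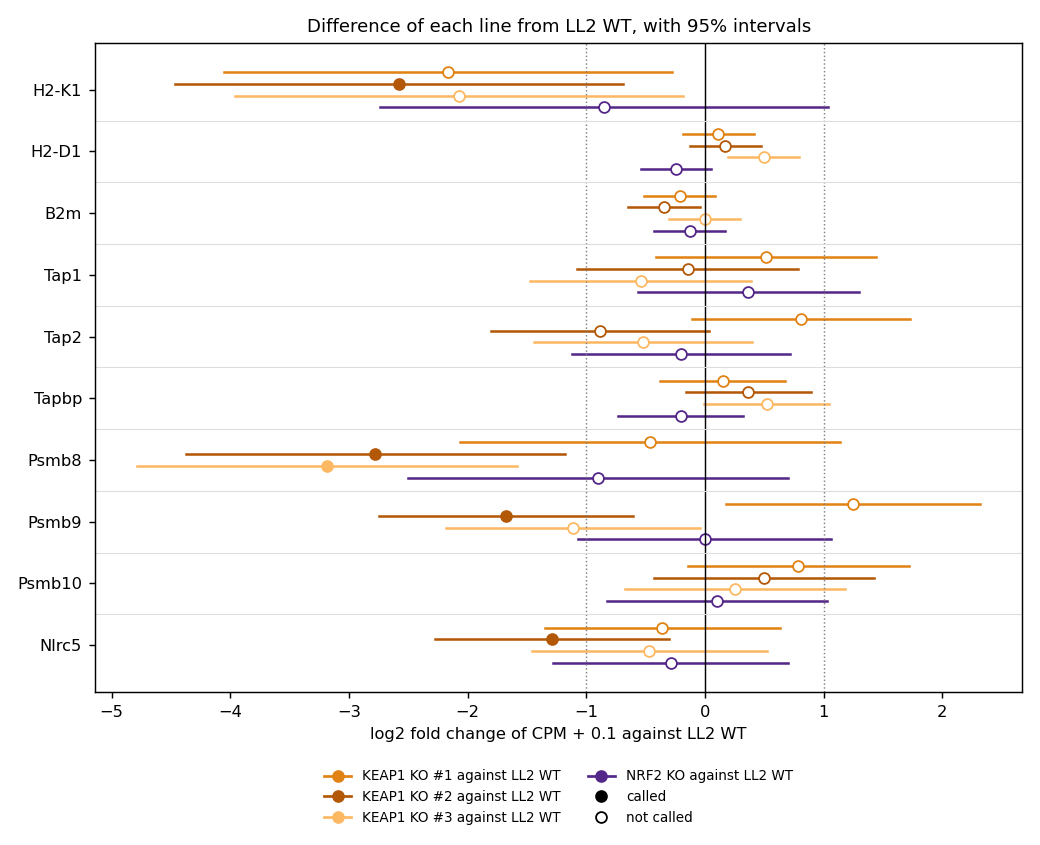
log2 fold change of CPM + 0.1 against LL2 WT for each member in the 4 knockout lines, with 95% intervals from limma. Filled points are called, and dotted lines mark an absolute log2 fold change of 1. Psmb8 and Psmb9 separate KEAP1 KO #2 and #3 from KEAP1 KO #1, and H2-K1 lies below 0 in all lines with wide intervals.

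H2-K1, the gene of the K heavy chain, was low and varied the most of the members above 1 CPM per kilobase. It was at 12.29, 3.44 and 31.7 CPM in LL2 WT replicates 1, 2 and 3 and at 3.12, 3.31 and 21.6 CPM in NRF2 KO. The KEAP1 KO samples were at 1.61, 1.396 and 5.93 CPM in #1, at 1.42, 1.504 and 2.60 CPM in #2, and at 1.64, 1.81 and 5.52 CPM in #3. All samples of #2 lay below every LL2 WT sample, while #1 and #3 overlapped LL2 WT through their replicate 3. The log2 fold change was −2.58 in KEAP1 KO #2 (SE 0.87, adjusted p = 0.0387). It was −2.17 in #1 (adjusted p = 0.0914) and −2.07 in #3 (adjusted p = 0.0880), which are not called. The mean of the 3 clones was lower than LL2 WT by −2.27 (95% interval −3.81 to −0.73, adjusted p = 0.0242). This interval and p-value rest on the spread among replicates within lines and not on the spread among clones. The same holds for every mean of the clones given below, against LL2 WT or NRF2 KO. With LL2 WT replicate 3 left out, the value in #2 became −1.82 (adjusted p = 0.159). That call was also lost without LL2 WT replicate 1, without replicate 1 or 2 of #2, with no filter (adjusted p = 0.0744) and with no trend (0.0517).

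Within the samples of one number, H2-K1 was lower in the KEAP1 KO clones throughout. Among replicates 1 and 2, the 6 KEAP1 KO samples spanned 1.396 to 1.81 CPM, below the 3.12 to 3.31 CPM of NRF2 KO and the 3.44 to 12.29 CPM of LL2 WT. Among the replicates 3, they spanned 2.60 to 5.93 CPM, below NRF2 KO (21.6) and LL2 WT (31.7). H2-K1 was the only member below LL2 WT in this way, as were 12.7% of all genes, and the only member below NRF2 KO, as were 1808 of the 14652 genes tested. Without replicate 3 of every line, an alternative added after the data were seen, H2-K1 was called lower in all 3 clones, at −2.05 (adjusted p = 0.0148), −2.08 (0.00878) and −1.86 (0.0142). With replicate 3 as a batch term the adjusted p was 0.00141, 0.000291 and 0.00136.

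H2-D1, the D heavy chain, did not follow H2-K1. It was at 145, 124 and 163 CPM in LL2 WT, at 155, 135 and 177 CPM in KEAP1 KO #1, and at 152, 151 and 182 CPM in #2. In KEAP1 KO #3 it was at 185, 202 and 219 CPM, and in NRF2 KO at 114, 109 and 141 CPM. KEAP1 KO #3 lay above every LL2 WT sample, as did 3226 of all 14652 genes tested, and above every sample of #2, the next line in order. Its log2 fold change was 0.50 (SE 0.14, adjusted p = 0.0153), a difference in the test but under the size for a call, and 31.4% of all genes passed at any size there. Over the alternative fits its adjusted p reached 0.166. The mean of the 3 clones exceeded NRF2 KO by 0.51 (95% interval 0.26 to 0.75, adjusted p = 0.00493), where 25.9% of all genes passed. The difference from LL2 WT was 0.11 in #1, and it was −0.04 there with quantile normalization. Rescaling by median ratios moved the median of all genes in #1 from 0.11 to 0.01.

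B2m, the light chain of every class I molecule, had 477, 422 and 608 CPM in LL2 WT, and in KEAP1 KO #1 it had 423, 380 and 488 CPM. It had 375, 384 and 416 CPM in #2, 496, 458 and 534 CPM in #3, and 441, 404 and 524 CPM in NRF2 KO. The samples of #2 lay below all of LL2 WT and the other lines overlapped it. The log2 fold changes ranged from −0.34 in #2 (95% interval −0.65 to −0.04, adjusted p = 0.0774) to −0.00 in #3 (−0.30 to 0.30), and none is called. In bulk RNA, fewer cells with a transcript and less transcript per cell cannot be told apart.

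**Figure D3:**
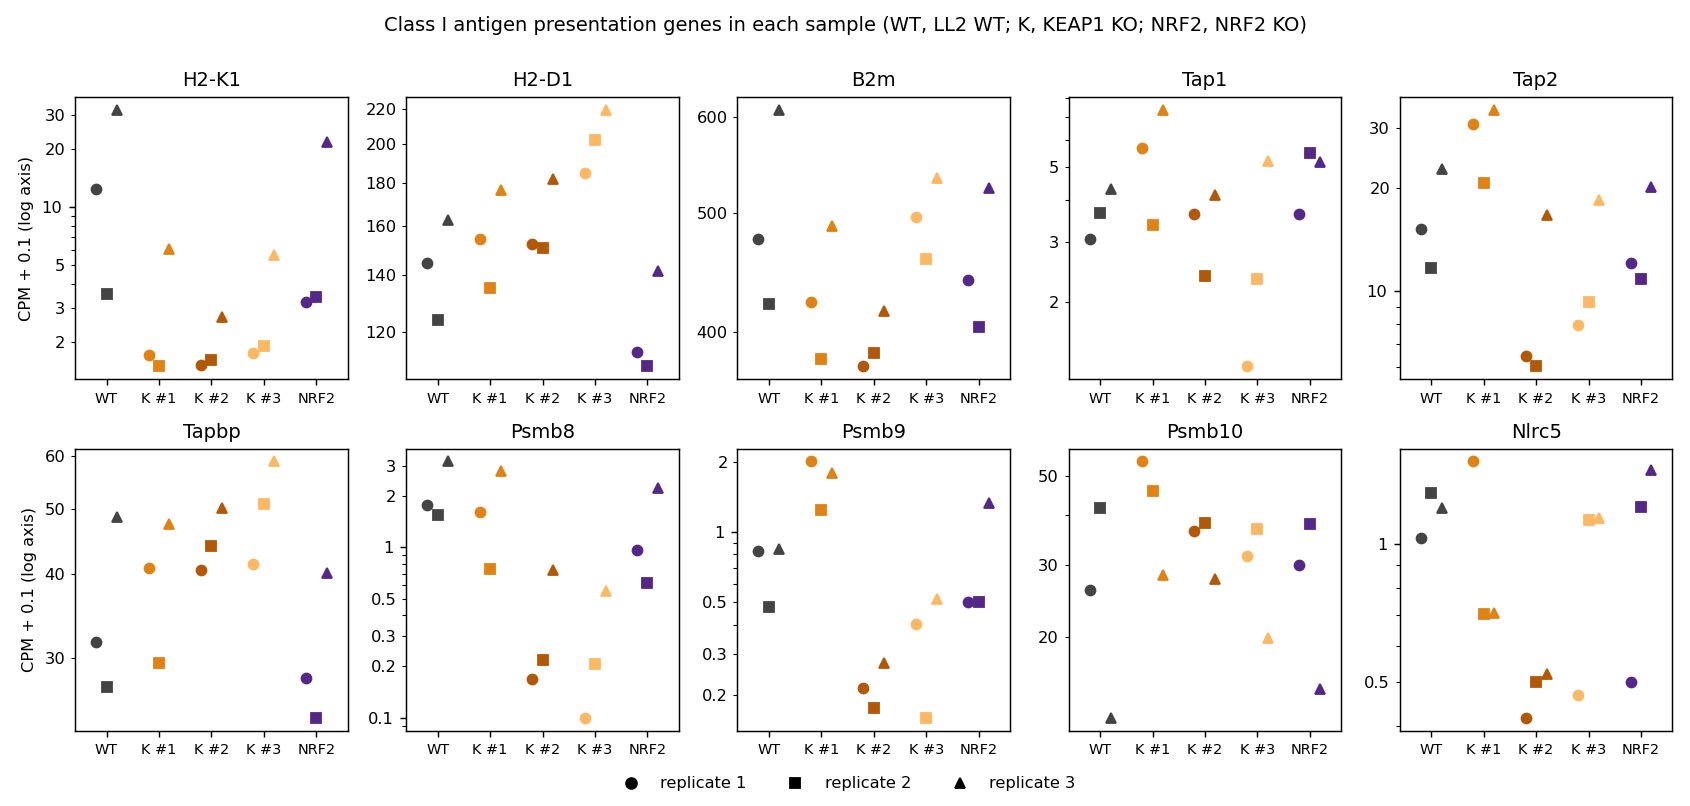
CPM + 0.1 (log axis, own scale per panel) of each member in each of the 15 samples, by line, with the shape giving the replicate number. H2-K1 is lowest in the KEAP1 KO clones at each number, Psmb8 and Psmb9 are low in KEAP1 KO #2 and #3 and not in #1, and triangles (replicate 3) sit at the top of most groups and at the bottom for Psmb10.

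Of the peptide transport genes, Tap2 separated the KEAP1 KO clones. Tap2, one half-transporter of the peptide pump, was at 30.9, 20.7 and 33.9 CPM in KEAP1 KO #1, against 6.36, 5.92 and 16.6 CPM in #2 and 7.86, 9.22 and 18.4 CPM in #3. It was at 15.1, 11.6 and 22.7 CPM in LL2 WT, and NRF2 KO had 12.0, 10.8 and 20.1 CPM. All 3 samples of #1 lay above every sample of #2 and #3, and no line was apart from LL2 WT. Against LL2 WT the log2 fold change was 0.81 in #1 (adjusted p = 0.189), −0.88 in #2 (0.132) and −0.52 in #3 (0.378). Tap2 was called lower in #2 without replicate 3 of every line (−1.095, adjusted p = 0.00351) and without replicate 3 of #2 alone (−1.35, 0.0202). Between clones it was −1.69 in #2 against #1 (SE 0.43, adjusted p = 0.0219), which is called, and −1.33 in #3 against #1 (adjusted p = 0.0596), which is not. With the replicate block, with the batch term and without replicate 3 of every line, both Tap1 and Tap2 were called lower in #3 than in #1. The call of Tap2 in #2 against #1 was lost without replicate 1 or 3 of #1 (−1.62 and −1.55) or replicate 1 or 2 of #2 (−1.48 and −1.43), and without replicate 3 of every line it was −2.02 (adjusted p = 0.000894).

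Tap1, the partner of Tap2, ranged from 1.198 CPM in a KEAP1 KO #3 sample to 7.25 CPM in a KEAP1 KO #1 sample and overlapped LL2 WT (2.97, 3.57 and 4.21 CPM) in every line. Its largest difference was −1.05 in #3 against #1 (adjusted p = 0.140). Tapbp, which encodes tapasin, was at 31.6, 27.0 and 48.6 CPM in LL2 WT, and its mean was 39.2, 44.8 and 50.3 CPM in the 3 KEAP1 KO clones and 30.8 CPM in NRF2 KO. Tapbp and H2-D1 were the only members above NRF2 KO in all KEAP1 KO samples of one number, as were 15.1% of all genes. The mean of the clones exceeded NRF2 KO by 0.55 for Tapbp (95% interval 0.12 to 0.98, adjusted p = 0.0598).

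The immunoproteasome subunits Psmb8 and Psmb9 were low in all lines and lowest in 2 of the 3 KEAP1 KO clones. Psmb8, the subunit that replaces Psmb5, was at 1.66, 1.45 and 3.08 CPM in LL2 WT and at 1.504, 0.643 and 2.68 CPM in KEAP1 KO #1. It was at 0.0683, 0.117 and 0.639 CPM in #2 and at 0, 0.107 and 0.456 CPM in #3. In NRF2 KO it was at 0.868, 0.521 and 2.12 CPM. KEAP1 KO #2 and #3 lay below every sample of LL2 WT and, #2 by a narrow margin, of #1, and 1 sample in each was at or under the floor, while #1 and NRF2 KO overlapped LL2 WT. Relative to the parent, Psmb8 was at a log2 fold change of −2.78 in #2 (SE 0.74, adjusted p = 0.0123) and −3.19 in #3 (adjusted p = 0.00558), against −0.46 in #1 (adjusted p = 0.697). The call in #3 held in all 27 alternative fits, and that in #2 in 26, the exception being without replicate 1 of #2 (−2.36, adjusted p = 0.0580). Of the 27, 15 left out 1 sample. Most of these samples came from lines outside the comparison, so leaving them out could not move the log2 fold change. At these levels the size depends on the pseudocount, from −1.35 at 1 CPM to −4.58 at 0.01 CPM in #3. The direct difference of #3 from #1 was −2.72 (adjusted p = 0.0299) and that of #2 from #1 was −2.32 (adjusted p = 0.0643). The call of #3 against #1 was lost in 6 of 27 alternative fits: with no filter (adjusted p = 0.0560), with only the lines of the contrast (0.0630), and without replicate 1 (−2.67) or 3 (−2.27) of #1 or replicate 1 (−2.14) or 2 (−2.66) of #3 (0.0881 to 0.128). Psmb8 was called in #2 against #1 with the replicate block, with replicate 3 as a batch term and without replicate 3 of every line.

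Psmb9, the subunit that replaces Psmb6, was at 0.725, 0.376 and 0.746 CPM in LL2 WT. It was higher in each sample of KEAP1 KO #1, at 1.91, 1.15 and 1.69 CPM, where 24.6% of all genes lay above LL2 WT without overlap. It was at 0.113, 0.0748 and 0.172 CPM in #2, at 0.302, 0.0590 and 0.414 CPM in #3, and at 0.398, 0.397 and 1.23 CPM in NRF2 KO. KEAP1 KO #2 lay below every LL2 WT sample and #3 overlapped it narrowly. Against LL2 WT the log2 fold change was 1.25 in #1 (95% interval 0.18 to 2.32, adjusted p = 0.0853), −1.68 in #2 (−2.75 to −0.61, adjusted p = 0.0206) and −1.11 in #3 (−2.18 to −0.04, adjusted p = 0.104). With the replicate block Psmb9 was called higher in #1 (adjusted p = 0.0131) and lower in #3 (0.0196), as with the batch term (0.0254 and 0.0372), and it was called in #1 with quantile normalization (0.0389). The call in #2 was lost at a pseudocount of 0.5 CPM (−0.83) or 1 CPM (−0.52), and without any 1 of LL2 WT replicates 1 and 3 and #2 replicates 1 and 2 (−1.55 to −1.52, and −1.67 without #2 replicate 1). Between clones Psmb9 was lower in #2 than in #1 by −2.93 (SE 0.50, adjusted p = 0.00227) and lower in #3 than in #1 by −2.37 (adjusted p = 0.00788). Both differences held in all 27 alternative fits, some of which left out only a sample of a line outside the comparison.

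Psmb10, the subunit that replaces Psmb7, did not share this pattern. It was at 26.0, 41.4 and 12.5 CPM in LL2 WT, and its means were 42.7, 34.0 and 29.4 CPM in the KEAP1 KO clones and 27.6 CPM in NRF2 KO, with every line overlapping LL2 WT. The log2 fold changes were between 0.11 and 0.79 and none is called. Nlrc5, the transactivator, was at 0.929, 1.19 and 1.095 CPM in LL2 WT, while KEAP1 KO #2 had 0.318, 0.401 and 0.420 CPM and did not overlap it. It was at 1.41, 0.603 and 0.608 CPM in #1, at 0.368, 1.03 and 1.04 CPM in #3, and at 0.399, 1.11 and 1.35 CPM in NRF2 KO. The log2 fold change in #2 was −1.29 (SE 0.46, adjusted p = 0.0466). This call was lost in 14 of 27 alternative fits, 10 of them fits that left out 1 sample, with adjusted p up to 0.129. In all, 5 members lay below LL2 WT without overlap in #2 (H2-K1, B2m, Psmb8, Psmb9 and Nlrc5), as did 18.6% of all genes. In #3 Psmb8 alone did so, as did 18.0% of all genes.

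**Figure D4:**
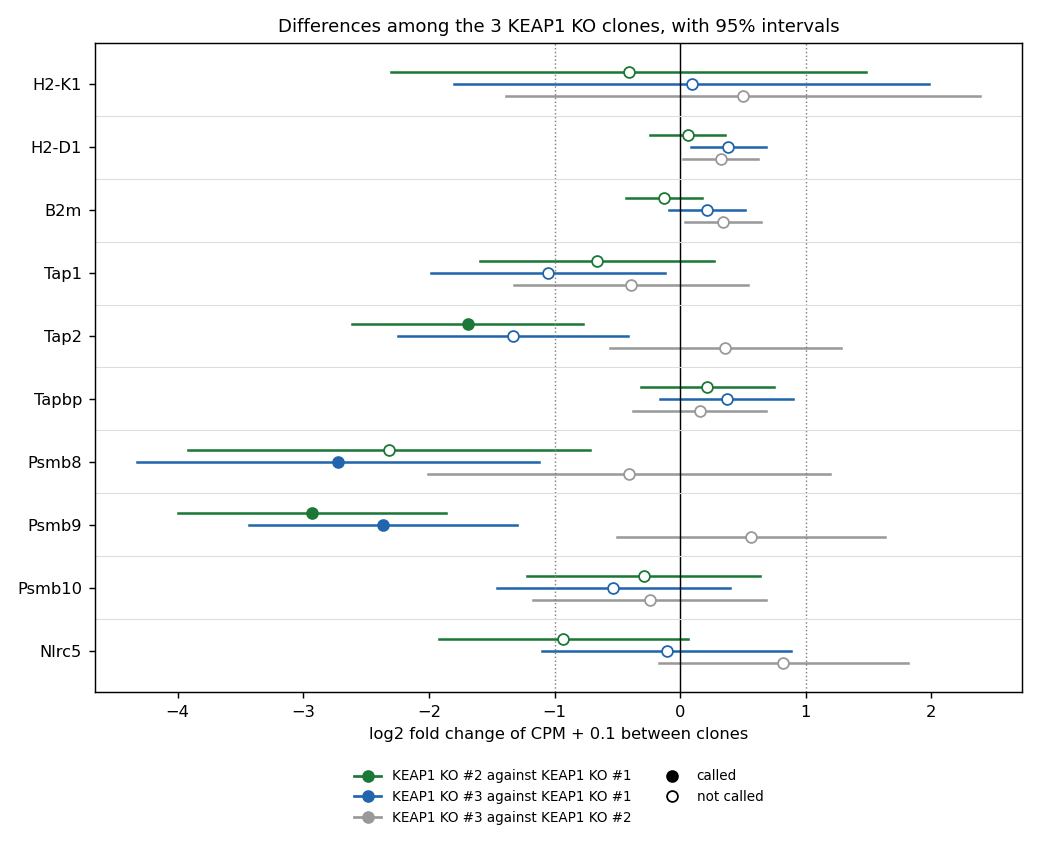
log2 fold change of CPM + 0.1 between pairs of KEAP1 KO clones for each member, with 95% intervals from limma and filled points where called. Psmb9 is lower in both #2 and #3 than in #1, Psmb8 is called in #3 against #1 and Tap2 in #2 against #1, and no member is called between #2 and #3.

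The members called between clones were thus lower in #2 (Tap2 and Psmb9) or #3 (Psmb8 and Psmb9) than in #1, where 2.79% and 2.60% of all genes were called lower. Between #3 and #2, 0 members were called by limma (2 at an unadjusted p under 0.05), where 0.485% of all genes were. The widest interval there was that of H2-K1, at 0.50 (−1.39 to 2.39), and Psmb9 differed by 0.57 (−0.51 to 1.63), so that differences of these sizes were not detectable. For the mean of the 3 clones, H2-K1 and Psmb8 (−2.14, adjusted p = 0.0144) were called lower than LL2 WT, where 6.87% of all genes were. Without LL2 WT replicate 3 neither was called, and without LL2 WT replicate 1 only 1 was. Against NRF2 KO the mean of the clones gave 0 called members by limma (2 at an unadjusted p under 0.05), where 9.94% of all genes were called, and Psmb8 was −1.24 (adjusted p = 0.155).

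No member of NRF2 KO passed the test against LL2 WT. The log2 fold changes ran from −0.90 for Psmb8 (95% interval −2.50 to 0.70) to 0.36 for Tap1 (−0.57 to 1.29), with 8 of 10 below 0. The narrowest interval was that of H2-D1, at −0.25 (−0.54 to 0.05), and the widest that of H2-K1, at −0.85 (−2.74 to 1.04). Adjusted p ranged from 0.561 to 1 and every member overlapped LL2 WT.

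The samples numbered 3 carried a shift in most members across the 5 lines. H2-K1, H2-D1, B2m, Tap2, Tapbp and Psmb8 were higher in replicate 3 than in replicates 1 and 2 of every line, as were 20.5% of all genes tested. Psmb10 was lower in replicate 3 of every line, as were 1493 genes. Nlrc5 had no common direction, at 0.05 in LL2 WT, 0.90 in NRF2 KO, and −0.54, 0.19 and 0.65 in KEAP1 KO #1, #2 and #3 on the log2 scale. On the log2(CPM + 0.1) scale, replicate 3 exceeded the mean of replicates 1 and 2 by 1.86 on average over the lines for H2-K1, 1.54 for Psmb8 and 0.91 for Tap2. The average was −0.92 for Psmb10 and 0.27 for both H2-D1 and B2m. For H2-K1 the shift was 2.26 in LL2 WT and 2.71 in NRF2 KO, and 1.91, 0.79 and 1.62 in KEAP1 KO #1, #2 and #3. Whether a culture, extraction or library set lies behind the number is not given by the labels and was not tested.

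**Figure D5:**
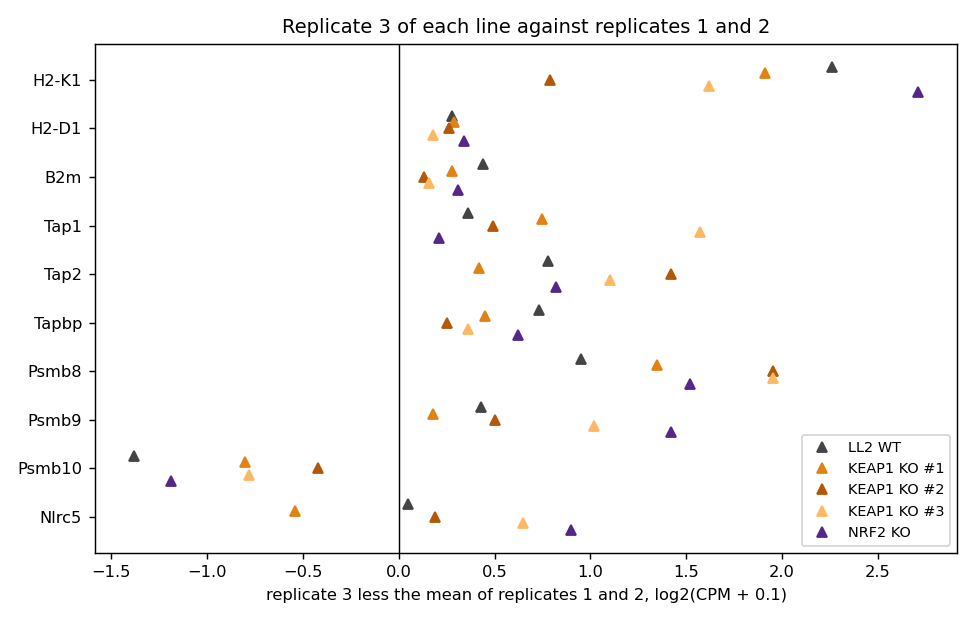
For each member and line, log2(CPM + 0.1) in replicate 3 less the mean of replicates 1 and 2. All 5 lines lie above 0 for 8 members, led by H2-K1 with a mean of 1.86, and all 5 lie below 0 for Psmb10 with a mean of −0.92.

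Some pairs of members moved together within lines and others across them. Over the deviations of the 15 samples from their line means, which share the shift of replicate 3, Pearson's r was 0.95 for H2-D1 with Tapbp and for Tap2 with Psmb8, 0.93 for H2-K1 with H2-D1, and −0.96 for H2-K1 with Psmb10. Over the 15 values themselves, H2-K1 and H2-D1 had an r of −0.01, and H2-D1 with Tapbp kept 0.92. The line means of Tap2 and Psmb9 correlated at 0.98 over 5 lines. Nlrc5 was the least tied to the others within lines, with r from −0.07 (Psmb10) to 0.57 (Tap1). The genes whose profile over the 15 samples was most like the mean z score of the 10 members, among 11668 genes at a mean of at least 1 CPM, were Pld3 and Ppp1r12b (r = 0.93 each), Slc30a9 and Ano10 (0.92) and Gpr146 (0.91). These are descriptions over samples that share lines and numbers.

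Of 19 other class I heavy chain genes listed, 8 were tested. H2-M3, which presents formylated peptides, averaged 7.57 CPM in the parent and was called lower in every KEAP1 KO clone, at −1.72 in #1 (adjusted p = 0.0135), −2.73 in #2 (0.000464) and −3.59 in #3 (5.13e-05). Mr1, which presents vitamin metabolites to MAIT cells, averaged 7.05 CPM in LL2 WT and was called lower in #2 (−4.01) and #3 (−3.63). Cd1d1, which presents lipids to NKT cells, was called higher in #2 (1.34). It was also higher in #1 (0.82, adjusted p = 0.00422) and #3 (0.92, 0.00132), under the size for a call. In #1 Mr1 was at −1.37 (adjusted p = 0.182), and 0 of the 8 were called in NRF2 KO (0 at an unadjusted p under 0.05). The median of the 8 was −0.54, −0.57, −0.55 and −0.50 in KEAP1 KO #1, #2, #3 and NRF2 KO. Of 9 genes of peptide trimming, loading and folding, 0 were called in any line against LL2 WT (at most 3 at an unadjusted p under 0.05), with medians of 0.00, 0.15, 0.06 and −0.01. Erap1, which trims peptides, was at 0.68 in #1 (adjusted p = 0.00466), under the size for a call, and Calr, the chaperone calreticulin, ranged from 0.20 to 0.51.

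Of 7 genes of the proteasome activator and standard catalytic subunits, 0 were called either (up to 4 at an unadjusted p under 0.05), with medians of 0.03, 0.19, 0.11 and −0.10. Psme1 and Psme2, the 2 chains of the activator PA28, had log2 fold changes of −0.81 and −0.59 in #2 (adjusted p = 0.00829 and 0.00499) and −0.89 and −0.69 in #3 (0.00447 and 0.00176), all under the size for a call. The standard subunits Psmb5, Psmb6 and Psmb7, whose places Psmb8, Psmb9 and Psmb10 take, lay between −0.18 and 0.37 in the 4 lines, with the lowest adjusted p at 0.265.

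Of 23 genes of interferon receptors, signaling and class I transcription factors, Ifngr1 alone was called against LL2 WT, and the medians were −0.06, −0.18, −0.14 and −0.04. At any size, adjusted p was under 0.05 for 3, 5 and 4 of them in KEAP1 KO #1, #2 and #3. The shares of all genes were 23.2%, 31.9% and 31.4%. Of the genes of the list that passed, 3, 4 and 3 were lower, and 0 passed in NRF2 KO (2 at an unadjusted p under 0.05). The lower ones included Ifngr2 in #1 (−0.823, adjusted p = 0.0133) and #2 (−0.815, 0.0101). Jak1 in #2 (−0.581, 0.0201) and #3 (−0.678, 0.00901) and Jak2 in #1 (−0.767, 0.0397) were also among them. Ifngr1, a chain of the interferon gamma receptor, averaged 31.2 CPM in LL2 WT and was lower in #2 (−1.41, adjusted p = 0.000281) and #3 (−1.29, 0.000555). In #1 it was at −0.99 (adjusted p = 0.00491), just under the size for a call, and in NRF2 KO at −0.40 (adjusted p = 0.526). Irf1, an activator of class I genes, lay between −0.38 and −0.12, with no call. Of 5 interferon genes, 4 were at 0 in all samples and Ifnb1 reached at most 0.125 CPM, so none was tested. Of 8 class II genes, 2 were tested, and H2-DMb1 was called lower in each KEAP1 KO clone (−1.70, −2.71 and −3.06). None of these genes was called in NRF2 KO.

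The neighbours of the 7 members on chromosome 17 stayed close to the median of all genes against LL2 WT. The 75 genes of the MHC region (chr17:33915899-37483552) that are in none of the lists and averaged at least 1 CPM had a median log2 fold change of −0.05, 0.08, 0.07 and 0.02 in KEAP1 KO #1, #2, #3 and NRF2 KO. The median of all such genes was 0.12, 0.03, 0.03 and 0.05. In #2 and #3 against #1, where Psmb9 was lower, the median of the region was 0.18 and 0.20, against −0.08 and −0.10 for all such genes.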

How the data were processed

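The authors deposited CPM per gene symbol, made by pseudo-alignment of 50 bp paired-end reads of poly(A) libraries with Kallisto to the GRCm38.p6 transcripts, per their methods. The submitters' processing notes name GRCm39 instead, so the build behind the values is uncertain, while gene positions here are GENCODE M21 on GRCm38.p6. The CPM are fractional and scaled to nearly the same total, so reads could not be recovered. An unnamed row (0.0214% to 0.0491% of a sample) was left out.

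Genes whose CPM summed to under 3 over the 15 samples were removed (21228 of 35880). The rest were tested with limma 3.58.1 in R 4.3.3, as in the methods, on log2(CPM + 0.1), with a mean per line, empirical Bayes with a trend, 10 residual degrees of freedom and Benjamini-Hochberg adjustment. The procedure was tested on simulated data with noise drawn independently for each sample. That test held no shared shift of replicate 3, so it cannot show how the fit behaves under one. Alternatives were other pseudocounts, filters and normalizations, a replicate block, a batch term and leaving out samples. The members and lists, fixed by name, were chosen with earlier results of these data known. Named beyond the members were Keap1, Nfe2l2 and Nqo1, the markers, 9 genes set by name, up to 6 genes per list called against LL2 WT, and the 5 genes most like the members. Ifngr2, Jak1 and Jak2 were named later, for their adjusted p. Promoter windows were from RefSeq (GRCm38.p6). Python 3.11.15 was used. Some genes of the lists are not reported here.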

Additional observations from a re-analysis of the deposited data

Results flagged for a closer look

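The knockout of Keap1 in separate clones did not go with the same change in every member. Tested directly between clones with limma, Tap2 differed by −1.69 (log2) in KEAP1 KO #2 against KEAP1 KO #1 and Psmb9 by −2.93. In KEAP1 KO #3 against KEAP1 KO #1, Psmb8 differed by −2.72 and Psmb9 by −2.37. The Psmb9 differences held in all 27 alternative fits, while that of Psmb8 lost its call in 6 and that of Tap2 in 4. Some of these fits left out only a sample of a line outside the comparison, which could not move the log2 fold change. Keap1 itself was less reduced in #1 (11.8 CPM) than in #2 and #3 (5.53 and 5.58 CPM), and whether this bears on the members was not tested. Groups of 3 samples were not examined for single outlying samples.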

How the results depend on the processing

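The counts of called members depended on how the samples numbered 3 were treated. With the replicate block the count became 2 in KEAP1 KO #1 against LL2 WT (main 0), 3 in #3 (main 1), 2 for the mean of the clones against NRF2 KO (main 0) and 4 in #3 against #1 (main 2), and the batch term for replicate 3 gave 2, 3, 2 and 4. Leaving out replicate 3 of every line, chosen after seeing the data, gave 1, 2, 1 and 4. The main fit did not use the replicate numbers, although samples of one number were partly alike. The median correlation of their deviations from the line means was 0.276 over 30 pairs (lowest −0.022), and 22 pairs were over 0.1. All number 3 pairs reached at least 0.422. Over 60 pairs of different number the median was −0.192. Deviations within a line sum to 0, so the medians for same and different numbers are not independent.

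Quantile normalization gave 1 in #1. In #2 (main 4) pseudocounts of 1 and 0.5 CPM and no filter gave 2 each. For the mean of the clones against LL2 WT (main 2), a pseudocount of 1 CPM and leaving out clone #2 or #3 gave 1 each, and against NRF2 KO leaving out clone #1 gave 2. No filter gave 1 in #3 against #1. Leaving out each sample in turn gave 0 to 1 in #1, 0 to 4 in #2, 1 to 2 in #3, 0 to 2 for the mean against LL2 WT, 1 to 3 in #2 against #1 and 1 to 4 in #3 against #1, and 0 to 0 in NRF2 KO, #3 against #2 and the mean against NRF2 KO. Where a count or call moved, the cause was not tested.

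Signs that turned belonged to members that were not called. Quantile normalization gave −0.043 for H2-D1 in #1, 0.061 for Tap1 in #2 and 0.057 for Psmb9 in NRF2 KO, where pseudocounts of 1 and 0.5 CPM gave 0.024 and 0.020. B2m in #3 was 0.09 without replicate 3 of every line. With each sample left out in turn, Tapbp in #1 ranged from −0.028 to 0.40, Psmb8 in #1 from −0.91 to 0.04, Tap1 in #2 from −0.31 to 0.088, B2m in #3 from −0.12 to 0.14 and Psmb10 in #3 from −0.20 to 0.65. In NRF2 KO the ranges were −0.25 to 0.017 for B2m, −0.48 to 0.056 for Tap2, −0.41 to 0.041 for Tapbp, −0.47 to 0.23 for Psmb9, −0.35 to 0.50 for Psmb10 and −0.59 to 0.18 for Nlrc5. Psmb9 gave no value with only #2 or #3 and LL2 WT in the fit, since it fell under the filter. The log2 fold changes under the alternatives were compared for the 10 members against LL2 WT and the 4 called differences between clones. Of these, 1108 kept their direction and whether they were called, whatever the change in size. This count includes fits that left out a sample of a line outside the comparison, which could not move the log2 fold change. A further 37 lost a call, 17 gained one and 24 turned. Unknown depth limits Psmb8, Psmb9 and Nlrc5 the most, whose levels are near the floor.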
